A study of Pimephales promelas with 20 samples.

Results

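A set of 100 array probes was examined whose median signal in fathead minnow liver was shifted, relative to control fish, in fish given phenanthrene at 29 and 287 ng/L, while at the highest dose, 1006 ng/L, it lay close to the controls. The fathead minnow (Pimephales promelas) is a small North American freshwater fish used in aquatic toxicology. The members were chosen from measured values in the authors' deposited table of log2 signals. A probe qualified when its median at 29 ng/L and its median at 287 ng/L differed from the control median by at least 0.4 log2 units in the same direction, and its median at 1006 ng/L lay within 0.2 log2 units of the control median. Of the 15208 fish probes on the array, 10867 passed a filter on dim signal (well above background on 4 or more of the 5 arrays in any dose group), 292 of these (2.69%) met the criteria, and the 100 with the largest mean shift at the lower doses were kept. All values of the members at any dose relative to the controls were therefore used to choose them, and are given as description.

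Liver RNA was measured on 20 one-colour Agilent arrays from female fish exposed for 48 h, with 5 arrays in each of 4 groups. The control fish received no agent (0 ng/L), and the other groups received phenanthrene at 29, 287 or 1006 ng/L. The labels give neither age nor strain, and do not state whether each array is a different fish. P-values therefore reflect the spread among these 20 arrays alone, and that spread may be technical. Phenanthrene, a polycyclic aromatic hydrocarbon, is a constituent of crude oil and of combustion residues. In fish, compounds of this class are oxidised in the liver by cytochrome P450 enzymes, and some larger members of the class induce those enzymes through the aryl hydrocarbon receptor. The liver of a mature female fish also makes vitellogenin, the egg yolk precursor, under the control of oestrogen.

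The files name each probe by an array identifier and a sequence name, and pair neither with a gene. Of these names, looked up whole, 0 were found in the RefSeq table of 64593 fathead minnow genes (assembly fPimPro1.hap1.1). The names have the array's own form, so this count does not show that the sequences lack a gene there. Members are therefore described by level, direction and rank of shift, with identifiers for 4 of them. The samples are whole tissue, so fewer cells of a type and less RNA per cell cannot be told apart. Gene function, genome position and probe sequence were not analysed here, and liver and other cell type markers could not be looked up.

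A single array had 57.4% to 84.1% of its fish probes well above background. The number of arrays limits the precision. The 20 arrays lay on 5 slides, of which slides 3 and 4 each held 2 arrays of every group. Control 6 and 1006 ng/L replicate 46 shared slide 2, while 29 ng/L replicate 25 lay on slide 5 and 287 ng/L replicate 36 on slide 1. Among these arrays, slide and the split of control and 1006 ng/L from the lower doses cannot be told apart. On 287 ng/L replicate 36 and 1006 ng/L replicate 42 a region of the array was dim: in 10 and 8 of 96 blocks of spot positions the mean log2 signal lay more than 0.5 below the median array. These regions held 10 members (beside 10.2% of all tested probes) and 6 members (beside 8.25%). With replicate 36 left out 85 of the 100 members still met the criteria, and with replicate 42 left out 48. Over all single arrays left out, the number was 85 to 95 for 287 ng/L and 43 to 56 for 1006 ng/L.

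Of the 100 members, 60 were higher and 40 lower at the lower doses than in controls. At 29 ng/L the size of the shift from the control median had a median of 1.02 log2 units (0.42 to 3.53). At 287 ng/L its median was 0.96 (0.42 to 4.27). At 1006 ng/L the difference lay between -0.19 and 0.20, as the criteria require. Most shifts were modest: the mean over the lower doses exceeded 1 log2 unit for 42 members and 2 log2 units for 5. The last member taken had a mean shift of -0.78 and the first probe not taken one of -0.77.

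Neither lower dose had the larger shift throughout. The shift was larger at 29 ng/L in 55 members and at 287 ng/L in 45, and the sizes at these doses lay within 0.4 log2 units of each other in 57. Of the 60 higher members, 17 were shifted by over 1 log2 unit at both doses, and of the 40 lower members 7 were. Higher members had a median mean shift of 1.002 (0.79 to 3.11), and lower members one of 0.87 in size (0.78 to 3.90).

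The same criteria with the doses exchanged were met by more probes. In the authors' deposited log2 values, 344 probes were shifted at 29 and 1006 ng/L with 287 ng/L near the controls, and 562 at 287 and 1006 ng/L with 29 ng/L near the controls, beside the 292 shifted at 29 and 287 ng/L alone. In values computed from the scanner output these counts were 334 and 570, beside 273. A further 1811 probes of the deposited table were shifted by at least 0.4 log2 units in the same direction at all 3 doses. All of these counts use the same 5 controls.

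The largest shift belonged to UF_Ppr_AF_109191, a dim probe that was lower at both doses. Its deposited log2 signals in the 5 controls were 0.48, 1.17, 5.71, 6.34 and 6.66. At 29 ng/L they were 0.16, 1.23, 2.17, 3.57 and 6.05. At 287 ng/L, where 1 array has no deposited value, they were 0.02, 0.61, 2.27 and 4.71. At 1006 ng/L they were 1.86, 3.87, 5.91, 6.88 and 7.70. The control values fell into a low and a high cluster, with the median in the high one, and arrays of every dose overlapped the controls. The probe was well above background on 1 of 5 arrays at 29 ng/L and on 1 at 287 ng/L, against 3 of 5 controls, and on 4 of 5 at 1006 ng/L. Fitted to the scanner values with limma, its log2 difference for the mean of the lower doses minus control was -1.83 (SE 1.22, adjusted p = 0.881).

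UF_Ppr_AF_115272 was the brightest member, with a mean log2 signal of 16.3, and was lower at both doses by its medians. Its controls had deposited log2 signals of 12.48, 14.52, 18.13, 18.40 and 18.83. At 29 ng/L the signals were 12.16, 15.11, 16.28, 18.18 and 18.41. The 287 ng/L arrays had 11.62, 12.52, 14.40, 18.32 and 18.58, and those of 1006 ng/L had 14.60, 17.86, 18.07, 18.87 and 19.02. Arrays near 18 and arrays several log2 units lower occurred in every group, so the groups overlapped throughout. The 29 ng/L arrays averaged 16.03 ± 2.56 (SD, n = 5), against 16.47 ± 2.82 in controls. The 287 ng/L arrays averaged 15.09 ± 3.23, against the same controls. With limma the log2 difference of the lower doses from control was -1.04 (SE 1.36, adjusted p = 0.957).

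A second tested probe carries the same sequence number as UF_Ppr_AF_115272 in the array's names, though the sources used here do not say what that number stands for. Its log2 signals were close between arrays, with a control mean of 17.56 ± 0.26 (SD, n = 5). The 29, 287 and 1006 ng/L arrays averaged 17.73 ± 0.22, 17.90 ± 0.33 and 17.65 ± 0.26, in that order of dose. It shared neither the spread nor the lower medians of UF_Ppr_AF_115272.

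Among the members that were higher, UF_Ppr_AF_111273 had the largest shift. Its controls had deposited log2 signals of 3.64, 3.95, 4.07, 6.52 and 8.75. At 29 ng/L they were 3.11, 5.76, 7.23, 7.82 and 8.21. The 287 ng/L arrays had 4.97, 5.01, 7.13, 7.55 and 9.15, and those of 1006 ng/L had 3.44, 3.51, 4.25, 5.83 and 8.71. All groups overlapped: apart from the lowest 29 ng/L array, the highest 287 ng/L array and the lowest 2 at 1006 ng/L, every array lay within the range of the controls. With limma the log2 difference of the lower doses from control was 1.15 (SE 1.06, adjusted p = 0.915).

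UF_Ppr_AF_108988, the next of the higher members, was not well above background on any control array. Its deposited log2 signals in controls were 0.55, 2.60, 2.89, 3.19 and 3.70. Arrays at 29 ng/L had 1.37, 3.23, 5.03, 5.83 and 10.25. The 287 ng/L arrays had 3.95, 4.30, 5.94, 6.42 and 6.54, and those of 1006 ng/L had 1.16, 2.82, 3.04, 3.94 and 6.12. All 5 arrays at 287 ng/L lay above all 5 controls, while those at 29 and 1006 ng/L overlapped them. Since the controls give only a bound, the mean was at least 4.15-fold higher at 287 ng/L (5.43 against 2.58 in controls, log2), where all 5 arrays were well above background. At 29 ng/L only 3 of 5 arrays were, and the mean of 5.14 (SD 3.33) included the array at 10.25, so no fold is given for that dose. The probe passed the filter on dim signal only through the 287 ng/L arrays, and was named for its size of shift. Its detection, fold and lack of overlap at 287 ng/L are therefore raised by construction. The bound takes, on each control array, the higher of the probe's own signal and the lowest signal of any probe well above background there. The limma difference of the lower doses from control was 2.72 (SE 1.07, adjusted p = 0.825), which is a fitted value against background signal and not a measured size.

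Groups also overlapped in most other members, as they did in most of the tested probes. The arrays at 29 ng/L did not overlap the controls for 0 of 100 members, where 0.773% of all tested probes had no overlap. At 287 ng/L the groups did not overlap for 3 members, beside 1.61% of tested probes. The criteria select on the difference at that dose, so nothing is read from these 3. For the 10 lower-dose arrays together against the 5 controls the count was 0 members (0.129% of tested probes), and against the 5 arrays at 1006 ng/L it was also 0 (0.092%). A line was drawn for each member midway between the control median and the mean of the lower-dose medians. Since the criteria act on medians, they place most lower-dose arrays beyond the line and most control and 1006 ng/L arrays before it, so the counts are a description. Of the arrays at 29 ng/L, 3 of 5 lay beyond it in 54 members, 4 in 37 and all 5 in 7. At 287 ng/L all 5 arrays did so in 12 members. On the other side, 2 of the 5 controls lay beyond the line in 53 members and 2 of the 5 arrays at 1006 ng/L in 54. A single member had at least 9 of the 10 lower-dose arrays and at most 1 of the 10 control and 1006 ng/L arrays beyond its line.

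That member, the 68th by size of shift, was chosen for description after its values were seen. It is a dim probe with a mean log2 signal of 3.91, well above background on 12 arrays. It passed the filter on dim signal only through the lower doses. Its deposited log2 signals were 2.77, 2.98, 3.40, 3.61 and 4.72 in controls, and 3.44, 3.91, 4.27, 4.46 and 6.34 at 29 ng/L. They were 3.97, 4.17, 4.24, 4.39 and 4.41 at 287 ng/L, and 3.25, 3.34, 3.40, 3.50 and 3.67 at 1006 ng/L. The arrays at 287 ng/L all lay above those at 1006 ng/L, but 1 control lay above all arrays at 287 ng/L. Its adjusted p by limma was 0.830 for the lower doses against control.

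No member passed the test across all probes. In simulated data this test, for the lower doses against control, recovered 8% of changes of 1 log2 unit, so changes of that size were mostly missed. It recovered 70% of changes of 2 log2 units and 98% of changes of 3. The changed probes were drawn from all tested probes, which vary less than the members, so these shares do not hold for members. With limma, fitted to the scanner values of all 20 arrays and adjusted by the Benjamini-Hochberg method over 10867 probes, 0 of 100 members had an adjusted p under 0.05 for the mean of the lower doses against control, and 0.0% of all tested probes did. By the ordinary linear model without moderated variances the count over all tested probes was also 0, with 656 at an unadjusted p under 0.05. At an unadjusted p under 0.05 there were 24 members, beside 5.83% of tested probes, a share to which the choice of members on this contrast contributes by construction. The lowest adjusted p of a member was 0.611, for the member ranked 53rd, which was lower by 0.97 log2 units (SE 0.27).

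Beside UF_Ppr_AF_108988, the members without overlap at 287 ng/L were the 12th and the 53rd, named by rank after their values were seen. The 12th, a dim probe, had deposited log2 signals of 3.45, 3.57, 3.91, 4.25 and 4.39 at 287 ng/L, against 0.29, 1.90, 2.33, 2.98 and 3.05 in controls. The 29 ng/L arrays of the 12th had 2.10, 2.42, 3.83, 4.12 and 4.52, which overlapped the controls. It was well above background on 3 of 5 arrays at 287 ng/L, against 0 of 5 controls, and passed the filter only through the 29 ng/L arrays. Its mean log2 signal was 3.92 at 287 ng/L and 2.11 in controls. Both groups held arrays not well above background, so no fold is given. The 53rd, also dim, had 3.08, 3.41, 3.78, 3.80 and 3.87 at 287 ng/L, against 4.05, 4.33, 4.51, 4.69 and 5.08 in controls. Those of the 53rd at 29 ng/L had 2.71, 2.73, 3.39, 4.02 and 4.44, with the highest of these inside the control range. At 1006 ng/L its signals were 3.75 to 4.67, so arrays of that dose overlapped those of 287 ng/L.

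At single doses, too, 0 members were called. At 29 ng/L against control limma called 0 members and 0.0% of tested probes, with 20 members at an unadjusted p under 0.05 beside 5.63% of probes. At 287 ng/L it called 0 members and 0.0% of probes, with 14 members beside 5.45%. The criteria select on both of these differences, so the members' counts at an unadjusted p under 0.05 are raised by construction. At 1006 ng/L it called 0 members and 0.202% of tested probes, and 0 members were under an unadjusted 0.05 beside 13.0% of probes, as a choice for small differences there must give. Between the lower doses 0 members and 0.0% of probes were called for 287 against 29 ng/L, with 0 members and 4.24% of probes at an unadjusted p under 0.05. The median difference of 287 minus 29 ng/L, taken in each member's direction, was 0.01 log2 units. The criteria asked for shifts of the same sign at both doses, so this likeness of the doses is shaped by the choice of members.

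The lower doses were also set against 1006 ng/L. The control arrays do not enter this difference, but the criteria used the 1006 ng/L medians and so fix a gap between those doses. Limma called 0 members and 1 of all tested probes (0.0092%), and that probe did not meet the criteria. At an unadjusted p under 0.05 there were 21 members beside 7.79% of tested probes, a difference that the choice of members contributes to. The median difference of the members in their own direction was 0.68 log2 units, and 97 of 100 had that direction, which the criteria largely set. The same test for the lower doses together against the controls and 1006 ng/L together, added after the data had been seen, uses 10 arrays on each side and called 0 members and 0.0% of probes. At an unadjusted p under 0.05 there were 29 members in that comparison, beside 4.05% of tested probes. The criteria select on this contrast, so nothing is read from the difference.

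Differences of means were smaller than differences of medians. In the fitted values the median over members of the difference of the lower doses from control, in each member's direction, was 0.67 log2 units, against 0.92 from group medians of the same scanner values. When the criteria were applied to group means of the deposited table, 203 probes met them and 22 of the 100 members were among these. The median SE of a member's fitted difference was 0.49, against 0.39 over all tested probes.

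Members were dimmer and more variable than the tested probes as a whole. Their mean log2 signal over the arrays had a median of 5.12 (quartiles 4.12 and 7.13), against 6.97 (5.04 and 9.06) over all tested probes. Of the members 68% lay under a mean log2 signal of 6, against 37.7% of tested probes, and 35 of 100 were well above background on all 20 arrays, against 61.1%. The SD between arrays of the same group had a median of 0.96 log2 units in members and 0.73 over all tested probes. The mean shift, on which members were ranked, exceeded this SD in 59 members, against 12.7% of all tested probes. These shares and medians describe the probes and were not tested, and larger shifts are found more often among variable probes by the way members were ranked.

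The 100 probes with the largest shifts in the same direction at all 3 doses had a median signal of 5.37 and an SD of 2.06, with a lower-dose shift above the SD in 51 of them, and the 100 with the largest shifts at 1006 ng/L alone 6.88 and 0.98.

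The 35 members well above background on every array comprised 22 that were higher and 13 that were lower. Their mean shift had a median size of 0.85 log2 units and their SD within groups a median of 0.87, against 0.61 for the 6638 tested probes that were so bright. Members with a mean log2 signal over 10 numbered 13, of which 6 were higher and 7 lower. Apart from UF_Ppr_AF_115272 the mean shifts of these 13 were between 0.79 and 1.62 log2 units in size.

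Of the members, 51 passed the filter on dim signal in each of the 4 groups. Another 22 of the 60 higher members passed this filter through the lower doses alone, so they entered the set through the groups in which they were bright. For 2 of the 40 lower members it was passed only through the control or 1006 ng/L arrays. The reverse also occurred, with 5 lower members passing through the lower doses alone and 1 higher member through the control or 1006 ng/L arrays alone. Among the higher members, 92.7% of probe and array pairs at 287 ng/L and 86.0% at 29 ng/L were well above background, against 69.3% in controls, with 74.7% at 1006 ng/L. The filter and the criteria both favour higher members that are bright at the lower doses, so this gap is raised by construction. Over all tested probes the shares were 94.9% at 287 ng/L and 89.3% at 29 ng/L, against 88.3% in controls, with 91.8% at 1006 ng/L. Among the lower members they were 89.0% at 287 ng/L and 74.5% at 29 ng/L, against 83.5% in controls, with 88.0% at 1006 ng/L.

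Seen array by array, the members' shift was spread over all 10 lower-dose arrays. For each array the distance from the control median was taken in each member's direction. Its median over members on the 29 ng/L arrays was 0.63, 0.86, 0.89, 1.03 and 1.58 log2 units. On the 287 ng/L arrays it was 0.82, 0.84, 0.94, 0.96 and 0.96, and on those of 1006 ng/L it was -0.14, -0.04, 0.05, 0.13 and 0.18. The separation of the lower doses follows from how members were chosen. The highest value, 1.58, belonged to 29 ng/L replicate 22, which held 201 of the 240 spots marked as outliers in the series, and the lowest at that dose, 0.63, to replicate 26. Of the members, 2 had a scanner value set to missing on any array. The cause of the high value was not tested. Over all tested probes the median size of the distance was 0.91 on replicate 22 and 0.82 on replicate 26. On 29 ng/L replicates 23, 24 and 25 it was 0.38 to 0.43. Even on the lower-dose arrays some members went the other way: between 5 and 19 of 100 lay more than 0.4 log2 units opposite to their direction.

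Within single slides the pattern was less regular. On slide 3, with 2 arrays per group, 73 members were shifted in their own direction at both lower doses, with medians of 0.99 log2 units at 29 ng/L and 0.81 at 287 ng/L. On slide 4 the number was 56, with medians of 0.36 and 0.47. The full criteria were met on slide 3 by 12 members (3.61% of all tested probes met them there) and on slide 4 by 8 (4.09%), and on both slides by 1 member. In the first scan session, which held 4 arrays of each group, 87 members were shifted in their own direction at both doses and 26 met the criteria (2.18% of all tested probes met them there). The arrays of these slides and of this session are among those used to choose the members. All of these counts of members are therefore raised by construction, and they are no independent check.

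Membership rested on single arrays. With controls 3, 4, 5, 6 or 7 left out singly, 48, 42, 46, 39 and 42 of the 100 members still met the criteria. Without a single 1006 ng/L array between 43 (replicate 45) and 56 (replicate 41) did. Without a single 29 ng/L array the number was 87 to 94, and without a single 287 ng/L array 85 to 95. Fewer stayed among the 100 with the largest shifts: 31 to 36 without a single control and 37 to 51 without a single 1006 ng/L array. Without a single 29 ng/L array 73 to 81 stayed, and without a single 287 ng/L array 72 to 81. Members had a mean lower-dose shift of at least 0.78 in size, where 0.4 was required, while the window at 1006 ng/L was 0.2. The higher counts without a lower-dose array are therefore shaped by the choice of members. The total meeting the criteria stayed between 259 and 318, so other probes took the place of those lost. Of the members, 4 met the criteria with every array left out in turn, and these were the 13th, 65th, 88th and 91st by size.

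Of these 4 members, chosen after their values were seen, the 65th and 88th were bright probes and the 13th and 91st dim ones. The 65th had deposited log2 signals of 12.98, 13.25, 13.25, 13.32 and 14.47 in controls. It had 13.45, 13.71, 14.002, 14.32 and 14.40 at 29 ng/L, 13.20, 13.66, 14.21, 14.40 and 14.50 at 287 ng/L, and 13.01, 13.18, 13.22, 13.26 and 13.94 at 1006 ng/L. All but 1 control lay below all arrays at 29 ng/L, and the remaining control lay above them. The 88th had mean log2 signals of 14.36 ± 0.58 (SD, n = 5) for 29 ng/L and 14.45 ± 0.67 for 287 ng/L, against 13.81 ± 0.48 in controls, with 13.75 ± 0.60 at 1006 ng/L. The 91st was lower, at 4.42 ± 0.97 at 29 ng/L and 4.76 ± 0.19 at 287 ng/L, against 5.21 ± 0.44 in controls, with 5.36 ± 0.99 at 1006 ng/L. The 13th was higher, at 4.38 ± 0.64 at 29 ng/L and 3.49 ± 1.20 at 287 ng/L, against 2.86 ± 0.68 in controls, with 2.59 ± 0.91 at 1006 ng/L. It passed the filter on dim signal only through the 29 ng/L arrays. By limma the adjusted p for the lower doses against control was 0.894 for the 65th, 0.881 for the 88th and 91st, and 0.810 for the 13th.

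The array's sequence names give some probes a shared number, and 72 members carry such a number. For 23 of them there was at least 1 tested probe with the same number that was no member, in 35 pairs. These other probes were shifted at the lower doses in the direction of their member in 23 pairs and in the opposite direction in 12. The median shift in the member's direction was 0.14 log2 units (-1.86 to 1.05), and the median size was 0.33, against 0.31 over all tested probes. It exceeded 0.4 log2 units in the member's direction in 8 pairs and in the opposite direction in 6. Of the probes in these pairs, 2 met the criteria, 1 of them in the direction of its member. In 2 number groups 2 probes were both members, all 4 of them lower at the lower doses. Probes with a shared number may share sequence and lie on the same arrays, so they are not independent. The 35 pairs held 34 distinct probes. Several pairs came from 1 number group of 8 tested probes, all of them in the direction of its member. Over all tested probes the mean shift at the lower doses was above 0 in 52.1%.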

How the data were processed

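The members and the comparisons were chosen with earlier results of these data known. The authors deposited Agilent linear intensity readings from the scanner, which Feature Extraction 10.7.1.1 had background-subtracted but not scaled between arrays, per the file headers. They also deposited a table of log2 signals for the 20 arrays, loess normalized per the labels. Each column correlated best with its own array (r of at least 0.992). Of its values, 714 are missing, 1 of them in a member, and 1 column of no sample was not used. Group medians, array values and the bound come from this table.

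For the tests, log2 processed signals, without control spots and with 240 outlier spots set to missing, were normalized by cyclic loess and fitted with limma 3.58.1 (R 4.3.3), using all 20 arrays and a coefficient per group. P-values are two-sided and adjusted by the Benjamini-Hochberg method. Of the members, 2 had a missing scanner value. The fit was tested on simulated data. The named probes are the 2 members with the largest mean shift in each direction. The planned gene lists and markers could not be applied without gene names. Raw median intensity replaced the planned mean intensity in the background alternative, since the output holds no mean.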

Additional observations from a re-analysis of the deposited data

Results flagged for a closer look

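The values of the 4 named members in each group, and the median shift of the members on the arrays of each group, made 20 sets of 5 arrays (4 where a value is missing). In 1 of them an array lay far from the other 4 by Dixon's ratio (0.738, above the critical value of 0.71 for 5 arrays). This was UF_Ppr_AF_115272 on 1006 ng/L replicate 45, with a deposited log2 signal of 14.60 against 17.86 to 19.02 on the other arrays of that dose. Chance marks about 1 in 20 such sets.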

How the results depend on the processing

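No member was called in any of 7 comparisons under 32 settings each. The probes meeting the criteria numbered 443 and 190 with sizes of 0.3 and 0.5 in place of 0.4, 140 with a window of 0.1 at 1006 ng/L, and 131 when probes had to be well above background on all 20 arrays. Without single arrays they numbered 259 to 318. In the scanner values 64 members met the criteria, beside 273 of all tested probes (2.51%). The number was 38 with 75th percentile scaling, beside 208 of all tested probes, and 77 with quantile normalization. It was 8 within slide 3 and 14 within slide 4, while the counts by slide given earlier use the deposited values. With normexp background, which added 50 to each signal before log2, it was 20. There the members' median shift was 0.37 log2 units, and 97 of 100 kept their direction at both lower doses. These member counts are raised by construction. In the deposited values 3.61% and 4.09% of all tested probes met the criteria within slides 3 and 4. No share over all tested probes is given for quantile normalization, normexp background or the slides in the scanner values. Nothing is read from the member counts there. Over all tested probes, the 22 called at 1006 ng/L against control became 12 with 75th percentile scaling, 36 with quantile normalization, 44 among probes bright on all arrays, 1 with slide as a fixed block, 0 within slide 3 or slide 4 (limma; 1494 and 600 probes there had an unadjusted p under 0.05), and 1 to 69 without single arrays. It was 69, 50 and 34 without 29 ng/L replicates 26 and 22 and control 6, and 1, 3 and 5 without controls 7, 3 and 4. Without 1006 ng/L replicates 41, 44 and 46 it was 3, 6 and 11. The 1 probe called between the lower doses and 1006 ng/L became 0 with the ordinary linear model, 75th percentile scaling, normexp, the brighter probes, slide as a fixed block, or within slide 3 or 4 (459 to 1700 at an unadjusted p under 0.05), and 0 to 2 without single arrays. It was 2 without 287 ng/L replicates 27, 32 or 36 or 1006 ng/L replicate 45, and 0 without 29 ng/L replicates 23, 24 or 25, 287 ng/L replicates 35 or 38, 1006 ng/L replicates 41, 44 or 46, or controls 3, 4, 6 or 7. For 287 against 29 ng/L the count was 2 within slide 3 and 0 to 2 without single arrays (2 without 29 ng/L replicate 26). It was 0 to 1 for 29 ng/L against control (1 without 287 ng/L replicate 27), and 0 to 1 for the lower doses against control (1 without 287 ng/L replicate 27 or 35). For 287 ng/L against control and for the lower doses against controls and 1006 ng/L together it was 0 throughout. The causes were not tested. No paired analysis was possible because the groups share no replicate numbers, so arrays were matched by slide alone, in the fits given here. Dim probes are limited by signal over background.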
